A study of Homo sapiens with 6 samples.

Results

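BC1 is a human primary effusion lymphoma cell line, and the comparison described here set its level of every measured gene against the levels in BCP1 and BCBL1, lines of the same lymphoma. All 6 arrays of the study were used, 2 of BC1 and 4 of the other lines, chosen by the cell line named in the labels. Each line had 1 array from cells given vehicle and 1 from cells given 3-AP at 2.5 µM for 48 h, so the groups were BC1 with vehicle, BC1 with 3-AP, and the same pair for BCP1 and for BCBL1. Total RNA was labelled and hybridised to Illumina expression bead arrays, and no array repeated a line and agent. The study compared agents within lines, whereas the contrast here is the level of the line, with the agent as a covariate.

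Primary effusion lymphoma arises from B cells that have moved towards the plasma cell state and carry Kaposi sarcoma-associated herpesvirus. Its cells usually have little surface immunoglobulin and few mature B cell proteins, and depend on NF-kB, a family of transcription factors that a viral protein keeps active. BC1 carries Epstein-Barr virus as well, and BCP1 and BCBL1 do not. 3-AP (triapine) blocks ribonucleotide reductase and so starves DNA synthesis of its building blocks.

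BC1 is a single line, so donor, viral content and culture cannot be told apart as sources of any difference. The 2 arrays of BC1 differ in agent, and p-values therefore measure the spread between arrays once the agent is fitted, not the spread between lymphomas. Levels are log2 signals after normalization across the 6 arrays, and a signal near 6 lies in the background. The floor is the lowest signal of a detected probe on an array (6.61 to 6.66), and where a gene lay below it in the dimmer group, those values were raised to it and the fold is given as a lower bound. Bounds were taken after background correction, and folds were smaller on the deposited intensities, for example 36.2-fold for HSPA1A. Differences are BC1 minus the mean of the other lines, with the standard error (SE) of the limma fit (2 arrays against 4 throughout), and a gene was called at a Benjamini-Hochberg adjusted p under 0.05 over 14925 features (10675 genes with a symbol and 4250 unnamed probes).

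The BCP1 and BCBL1 arrays were very alike. Under vehicle, the log2 differences between BCP1 and BCBL1 had an SD of 0.213, and under 3-AP of 0.248, both smaller than the SD between the vehicle and 3-AP arrays of BCP1 (0.317) or of BCBL1 (0.326). Between BC1 and any other array the SD was 0.704 to 0.821. Only 16 features (0.107%) were called between BCP1 and BCBL1 by limma, with 976 at an unadjusted p under 0.05. The 4 comparison arrays thus held little spread between lines. In the authors' non-normalized table the columns labelled BCP1 hold the BCBL1 values, and whether the labels of these lines are right in the processed table was not tested. With BCBL1 as the only other line 4194 features were called, and with BCP1 as the only other line 4481.

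In BC1, 2988 features were higher (20% of those tested) and 2742 were lower (18.4%). The balance depended on scaling, with 3523 higher and 2293 lower under median scaling and 2605 higher and 2945 lower on the deposited intensities. At least 2-fold, 588 were higher (3.94%) and 797 lower (5.34%), and beyond 8-fold the lower calls outnumbered the higher ones by 103 to 32. All 5730 calls had the same sign under vehicle and under 3-AP, and against BCP1 and against BCBL1. In 5214 of them the BC1 arrays lay wholly outside the range of the other 4. The same arrays made the calls, so this agreement is largely built in and is no separate support. The share without overlap over all features was not counted. The median difference over all features was 0.04. Counts in the gene lists below are to be read against 20% higher and 18.4% lower. These shares include the unnamed probes, whereas the lists hold named genes only. Shares over named genes alone are not given, so small departures from these values carry little weight. No feature was called for a different BC1 effect under the 2 agents by limma's interaction term, although 2146 had an unadjusted p under 0.05. By detection calls, 527 features were detected on all 4 arrays of the other lines and neither of BC1, and 421 were the converse.

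**Figure D1:**
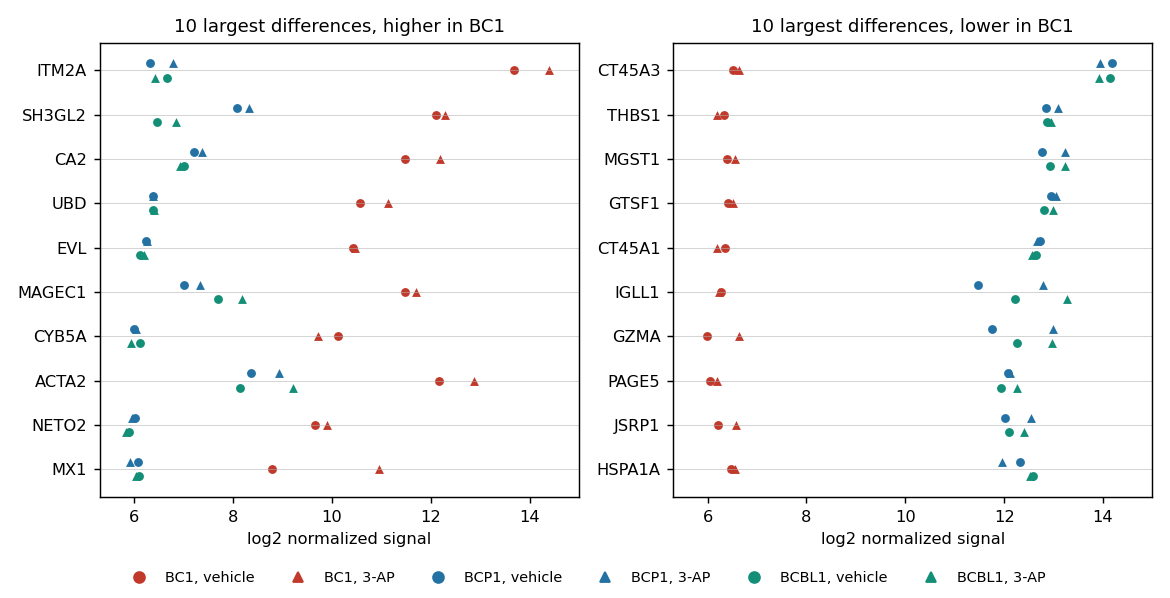
The log2 normalized signal of the 10 genes with the largest higher and the 10 with the largest lower difference in BC1 is shown on each array, by line (colour) and agent (circle or triangle). In the 10 lower genes the BC1 arrays sit near the background, and in all 20 genes no BC1 point lies among those of the other lines.

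Most defining plasma cell markers were present in all 3 lines, and mature B cell markers were mixed. PRDM1, IRF4 and XBP1 are transcription factors of plasma cells. They, SDC1 (syndecan-1), CD38 and TNFRSF17 (BCMA, a survival receptor of plasma cells) were detected on all 6 arrays. The plasma cell marker MZB1 was detected on both BC1 arrays and 2 of the 4 others, near the floor. The joining chain gene JCHAIN and the B cell factor PAX5 were detected on none. Among other mature B cell markers, CD74 and HLA-DRA were detected on all 6 arrays. CD79A was detected on 1 BC1 array and 3 others, and CD79B on 2 and 2. MS4A1 was detected on 1 BC1 array only, and CD22 on 1 other array only. CD38 read 9.0 and 10.32 in BC1 under vehicle and 3-AP, against 8.06 and 8.30 in BCP1 and 8.06 and 8.39 in BCBL1, a 2.75-fold higher level (log2 1.46 ± 0.20 SE, adjusted p = 0.000623). XBP1 was 1.83-fold lower (-0.87 ± 0.11) and TNFRSF17 1.93-fold lower (-0.95 ± 0.11), whereas the differences for PRDM1 (0.43, adjusted p = 0.0656), IRF4 (-0.13, adjusted p = 0.391) and SDC1 (0.04, adjusted p = 0.805) did not pass the threshold. PRDM1 did so under 8 other settings (0.40 to 0.81). Of 21 plasma cell genes tested, 6 were higher (28.6%) and 4 lower (19%), against 20% and 18.4% of all features. Among defining T and natural killer cell genes, CD3D, CD3E, CD8A, GNLY and NKG7 were detected on no array, CD2 and CD7 on the 4 arrays of the other lines and neither of BC1, and IL2RB on all 6, at 12.94 to 14.13 with overlapping groups. Of myeloid genes, CD68 was detected on all 6 arrays, and so was LYZ, though near the floor (6.88 to 7.26). MPO was detected on the 4 others only, also near the floor (6.78 to 7.07). CD14 was detected on 1 BC1 array and 1 other, CSF1R on 1 other array only, and ITGAM and S100A9 on none.

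MHC class I presentation was the list with the greatest share of higher calls. These genes cut cytosolic proteins to peptides, carry the peptides into the endoplasmic reticulum and load them on class I molecules for display to T cells. Of 21 genes tested among 22 on the array, 17 were higher, none was lower and 4 were not called, with a median difference of 0.90. The median was 0.91 against BCP1 and 0.88 against BCBL1, 0.75 under vehicle and 1.04 under 3-AP.

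At the loading step, TAPBP (tapasin) holds empty class I molecules next to the peptide transporter. TAPBP read 10.99 under vehicle and 11.45 under 3-AP in BC1, 8.21 and 8.52 in BCP1, and 8.36 and 8.68 in BCBL1. Both BC1 arrays lay above all others, by 6.88-fold (2.78 ± 0.12, adjusted p = 3.49e-07). TAP1, a subunit of that transporter, read 12.33 and 13.38 in BC1 against 10.73 to 11.16 elsewhere and was 3.79-fold higher (1.92 ± 0.18), and its partner TAP2 was 1.47-fold higher (0.56 ± 0.11). Of the proteasome parts that favour class I peptides, PSMB9 read 10.28 on both BC1 arrays against 7.79 to 8.03 elsewhere and was 5.24-fold higher, PSME1 3.2-fold and PSME2 3.04-fold. Each step before the class I chain itself thus held a higher member.

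Among the class I chains, HLA-F read 13.30 and 13.85 in BC1, 10.45 and 11.03 in BCP1, and 10.47 and 11.33 in BCBL1, and was 6.75-fold higher (2.75 ± 0.12). HLA-G was 7.33-fold higher, HLA-B 5.04-fold and HLA-E 2.78-fold. HLA genes are near-identical in sequence and differ between donors, so how much of each value is 1 gene, or the fit of a probe to an allele, was not tested. B2M, the invariant light chain of every class I molecule, differed by 0.32 ± 0.11 (adjusted p = 0.0504), with levels of 14.34 and 14.45 in BC1 and 13.89 to 14.28 elsewhere. B2M was called under 7 other settings (0.31 to 0.59). The general chaperones of the endoplasmic reticulum CALR (0.11) and CANX (-0.23) and the peptide trimming enzyme ERAP2 (0.20) were the other members not called, and ERAP2 was called when its probes were averaged (0.63, adjusted p = 0.00235).

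MHC class II presentation, by which antigen-presenting cells show peptides to helper T cells, was split instead of shifted. Of 21 genes tested, 5 were higher and 8 lower, with a median of -0.30. HLA-DRB5 read 6.15 and 6.13 in BC1, in the background, against 10.76 and 11.31 in BCP1 and 10.43 and 10.92 in BCBL1, at least 18.7-fold lower. HLA-DRB1 was at least 8.08-fold lower (above the floor on 1 of 2 BC1 arrays), whereas HLA-DRA, the shared alpha chain, differed by -0.19 ± 0.23 (adjusted p = 0.549). The HLA-DRB copies resemble each other, vary between donors and are not all carried by every person, so these 2 values are uncertain. The donor limit also holds for HLA-DQB1 below, which was detected on 2 of the 6 arrays. LGMN, the only lower member that is not an HLA gene, differed by -4.71 on the log2 scale and was detected on all 6 arrays. The other 7 lower members were HLA genes, and how far copies or donors set their values was not tested. CD74, the invariant chain, was 2.11-fold higher, CIITA, the class II transactivator, 1.84-fold higher (without the BC1 vehicle array 0.50 on the log2 scale, adjusted p = 0.212), and HLA-DQB1 at least 2.76-fold higher.

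Interferon-stimulated genes, which encode antiviral effectors and the factors that induce them, were also higher. Of 43 tested among 56 on the array, 23 were higher, 12 of them by at least 2-fold, and 3 were lower, with a median of 0.60. Members off in the other lines, such as MX1 and IFI27, could be tested only because BC1 had them. The count therefore describes the pattern, and over 10 settings the median ran from 0.31 to 0.75. The median was 0.35 under vehicle and 0.70 under 3-AP, and 0.75 against BCP1 and 0.45 against BCBL1. MX1, a GTPase that blocks viral replication, read 8.78 under vehicle and 10.95 under 3-AP in BC1, and 5.91 to 6.10 on the other arrays, where it was not detected. This made it at least 9.36-fold higher (adjusted p = 0.00011), with both BC1 arrays apart from the rest and from each other.

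EPSTI1 read 10.13 and 11.59 in BC1 against 7.68 to 8.18 elsewhere and was 7.55-fold higher (2.92 ± 0.23). IFIT3, which binds other antiviral proteins, read 8.30 and 8.97 against 6.09 to 6.54 and was at least 3.98-fold higher, with all 4 other values below the floor. Of the factors that drive the programme, IRF1 was 4.67-fold higher, IRF9, the DNA-binding part of the interferon-activated complex, 4.61-fold, and IRF7 at least 3.14-fold (above the floor on 3 of the 4 others). In BC1 the 3-AP array was the higher of the pair for all 6 of these genes and for IFI27, which read 7.19 and 9.82 (at least 3.65-fold higher). UBD, a ubiquitin-like protein that interferon and tumour necrosis factor induce, read 10.56 and 11.14 in BC1 and 6.38 to 6.41 elsewhere, at least 18.5-fold higher.

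The interferon list was not uniform. GBP2, an interferon-induced GTPase, read 7.24 and 9.06 in BC1, 10.02 and 10.67 in BCP1, and 10.27 and 11.10 in BCBL1, and was 5.16-fold lower (-2.37 ± 0.23). HERC5 (at least 1.51-fold) and SAMD9 (1.82-fold) were the other lower members, and HERC5 lost its call without the BC1 3-AP array (-0.35, adjusted p = 0.182). ISG15, the ubiquitin-like modifier that HERC5 attaches, differed by 0.33 (adjusted p = 0.178) and was called when the 3-AP arrays alone were used (0.71, adjusted p = 0.0104).

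NF-kB moves into the nucleus once its inhibitors are degraded, and it then induces those same inhibitors, which limits the response. Of 35 subunits and targets tested among 47 on the array, 17 were higher, 12 of them by at least 2-fold, and 3 were lower, with a median of 0.40. Any member off in the other lines was tested only because BC1 had it, and over 10 settings the median ran from 0.34 to 0.73. Inhibitors were among the higher members. NFKBIA (IκBα) read 13.10 and 13.27 in BC1, 9.0 and 9.49 in BCP1, and 9.18 and 9.78 in BCBL1, 14.1-fold higher (3.82 ± 0.14, adjusted p = 1.76e-07). TNFAIP3 (A20, an enzyme that dampens the signal upstream) read 9.92 and 10.96 in BC1 and 7.14 to 8.0 elsewhere, 8.1-fold higher (3.02 ± 0.21). In both the BC1 arrays lay well above the rest, and the inhibitor NFKBIE was 3.56-fold higher.

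Among the subunits, RELB was 2.89-fold higher (1.53 ± 0.12), NFKB2 2.79-fold (1.48 ± 0.11) and NFKB1 1.82-fold (0.87 ± 0.12). RELA (0.03, adjusted p = 0.891) and REL (0.40, adjusted p = 0.0764) were not called, and REL was under 4 other settings (0.40 to 0.70). Secreted products differed in direction. IL6, a growth factor of plasma cells and of this lymphoma, read 9.80 and 10.34 in BC1 and 7.28 to 7.71 elsewhere, 6.11-fold higher (2.61 ± 0.18), and EBI3, a cytokine subunit, was at least 6.22-fold higher (above the floor on 2 of the 4 others). CCL5, a chemokine that attracts T cells, read 7.31 and 8.38 in BC1, 9.83 and 10.92 in BCP1, and 10.33 and 11.17 in BCBL1, and was 6.58-fold lower (-2.72 ± 0.15).

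The promoters of NFKBIA, TNFAIP3 and IL6 are shown because each is a higher member described above and holds an NF-kB motif, as most higher members of this list did. Each is the RefSeq sequence (GRCh38.p14) from 250 bases before to 50 after the gene's start, read 5′ to 3′ on the gene's strand, and capitals mark the motif, GGGA and TTCC with any 2 bases between them, or its reverse complement (GGAA, 2 bases, TCCC). NFKBIA lies on the minus strand (chr14:35404700-35404999), and TNFAIP3 (chr6:137867009-137867308) and IL6 (chr7:22726950-22727249) on the plus strand.
NFKBIA: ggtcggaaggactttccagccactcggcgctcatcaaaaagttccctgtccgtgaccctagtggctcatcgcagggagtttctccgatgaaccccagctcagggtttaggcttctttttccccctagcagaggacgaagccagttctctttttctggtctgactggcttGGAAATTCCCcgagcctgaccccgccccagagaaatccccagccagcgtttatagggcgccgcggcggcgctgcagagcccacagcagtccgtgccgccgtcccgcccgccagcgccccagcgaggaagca
TNFAIP3: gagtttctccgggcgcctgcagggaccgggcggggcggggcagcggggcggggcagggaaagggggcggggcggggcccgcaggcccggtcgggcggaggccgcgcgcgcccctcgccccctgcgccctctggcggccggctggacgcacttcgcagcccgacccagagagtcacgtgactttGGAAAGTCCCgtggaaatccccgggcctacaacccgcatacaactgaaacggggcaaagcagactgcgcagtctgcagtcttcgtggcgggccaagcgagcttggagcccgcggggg
IL6: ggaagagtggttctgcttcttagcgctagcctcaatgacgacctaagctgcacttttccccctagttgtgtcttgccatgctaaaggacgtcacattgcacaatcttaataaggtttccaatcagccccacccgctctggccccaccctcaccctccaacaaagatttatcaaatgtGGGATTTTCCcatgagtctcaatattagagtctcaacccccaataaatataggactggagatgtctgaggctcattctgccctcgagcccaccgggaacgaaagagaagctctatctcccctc
The motif was found, on either strand, in 564 of all 35116 promoters (1.61%) and in 2.06% of those of tested genes. In the NF-kB list it was found in 10 of 14 higher genes with a promoter sequence and in 2 of 17 others. A match is a run of letters and not a measured binding site.

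For the interferon and class I lists the motif searched was a pair of TTTC with any 2 bases between them, or the reverse complement with GAAA, the core of the interferon-stimulated response element. The promoters of IFIT3 (chr10:89327747-89328046, plus strand, 2 matches), TAPBP (chr6:33314029-33314328, minus strand, 2 overlapping matches) and HLA-F (chr6:29723184-29723483, plus strand) are shown in the same form, as higher genes of these lists that hold it.
IFIT3: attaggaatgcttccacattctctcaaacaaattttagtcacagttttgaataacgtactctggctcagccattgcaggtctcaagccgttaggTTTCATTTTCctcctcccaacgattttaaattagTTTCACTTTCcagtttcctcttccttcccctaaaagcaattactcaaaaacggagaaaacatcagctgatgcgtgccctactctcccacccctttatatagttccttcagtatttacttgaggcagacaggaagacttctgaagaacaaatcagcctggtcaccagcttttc
TAPBP: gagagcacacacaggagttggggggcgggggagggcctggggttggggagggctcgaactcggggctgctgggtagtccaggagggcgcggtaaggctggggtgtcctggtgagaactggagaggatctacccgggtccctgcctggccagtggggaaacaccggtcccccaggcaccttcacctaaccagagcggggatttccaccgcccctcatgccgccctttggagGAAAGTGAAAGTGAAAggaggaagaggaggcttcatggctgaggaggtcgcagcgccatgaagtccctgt
HLA-F: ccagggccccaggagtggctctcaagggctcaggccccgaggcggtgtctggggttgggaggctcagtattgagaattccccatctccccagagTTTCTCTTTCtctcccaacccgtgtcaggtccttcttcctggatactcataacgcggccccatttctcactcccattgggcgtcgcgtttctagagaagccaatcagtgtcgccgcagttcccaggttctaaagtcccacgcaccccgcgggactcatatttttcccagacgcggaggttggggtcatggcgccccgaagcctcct
This motif was present in 1255 of 35116 promoters (3.57%) and in 4.06% of those of tested genes. Among interferon-stimulated genes it was found in 11 of 19 higher genes and in 15 of 18 others, and in the class I list in 9 of 14 higher genes and 2 of 4 others.

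Targets of p53, the factor that halts or kills cells with damaged DNA, were also higher in many members. Of 37 tested among 42 on the array, 21 were higher and 2 lower, with a median of 0.67. Members off in the other lines, such as PHLDA3 below, were tested only because BC1 had them. The vehicle arrays gave a median of 0.32 and the 3-AP arrays 1.04. The members' median level relative to the mean of the other 4 arrays was 0.23 on the BC1 vehicle array, 1.14 on the BC1 3-AP array, and -0.10 to 0.08 on the others. No single gene was called for a different BC1 effect under the 2 agents by limma's interaction term. The effect of the agent itself was not tested.

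PHLDA3, which inhibits the kinase AKT, read 8.26 and 9.42 in BC1 and 5.98 to 6.17 elsewhere, where it was not detected, at least 4.6-fold higher (adjusted p = 1.94e-05). PMAIP1 (NOXA), a killer of the BCL2 family, read 11.07 and 11.93 in BC1, 9.23 and 10.27 in BCP1, and 8.85 and 9.94 in BCBL1, 3.81-fold higher (1.93 ± 0.15). The death receptors FAS (at least 2.5-fold, above the floor on 2 of the 4 others) and TNFRSF10B (2.57-fold) and the p53 inhibitor MDM2 (2.78-fold) were higher with no overlap of the arrays. CDKN1A (p21), which blocks the cell cycle, read 11.69 and 14.62 in BC1, 10.13 and 12.65 in BCP1, and 11.45 and 13.11 in BCBL1. On both agents BC1 was above the other lines, by little under vehicle against BCBL1, and the fit with agent called it 2.49-fold higher (1.31 ± 0.34, adjusted p = 0.0145), a call lost without the BC1 3-AP array (0.89, adjusted p = 0.223).

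RRM1 (0.22 ± 0.12, adjusted p = 0.169) and RRM2 (0.37 ± 0.17, adjusted p = 0.119), the subunits of ribonucleotide reductase in dividing cells, were not called, though RRM2 was under 4 other settings (0.37 to 0.59), among them against BCP1 alone (adjusted p = 0.0101). RRM2B, the small subunit that p53 induces, read 9.85 and 11.02 in BC1, 9.01 and 9.52 in BCP1, and 9.30 and 9.76 in BCBL1, 2.04-fold higher (1.03 ± 0.17, adjusted p = 0.00169). Both BC1 values of RRM2B lay above the rest, the vehicle value by little. RRM2B lies in a block of chromosome 8 with many higher genes, described below. Among regulators of cell death, BCL2, which opposes such death, read 8.89 and 9.95 in BC1 against 6.34 to 6.72 elsewhere and was at least 6.76-fold higher (above the floor on 1 of the 4 others).

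**Figure D2:**
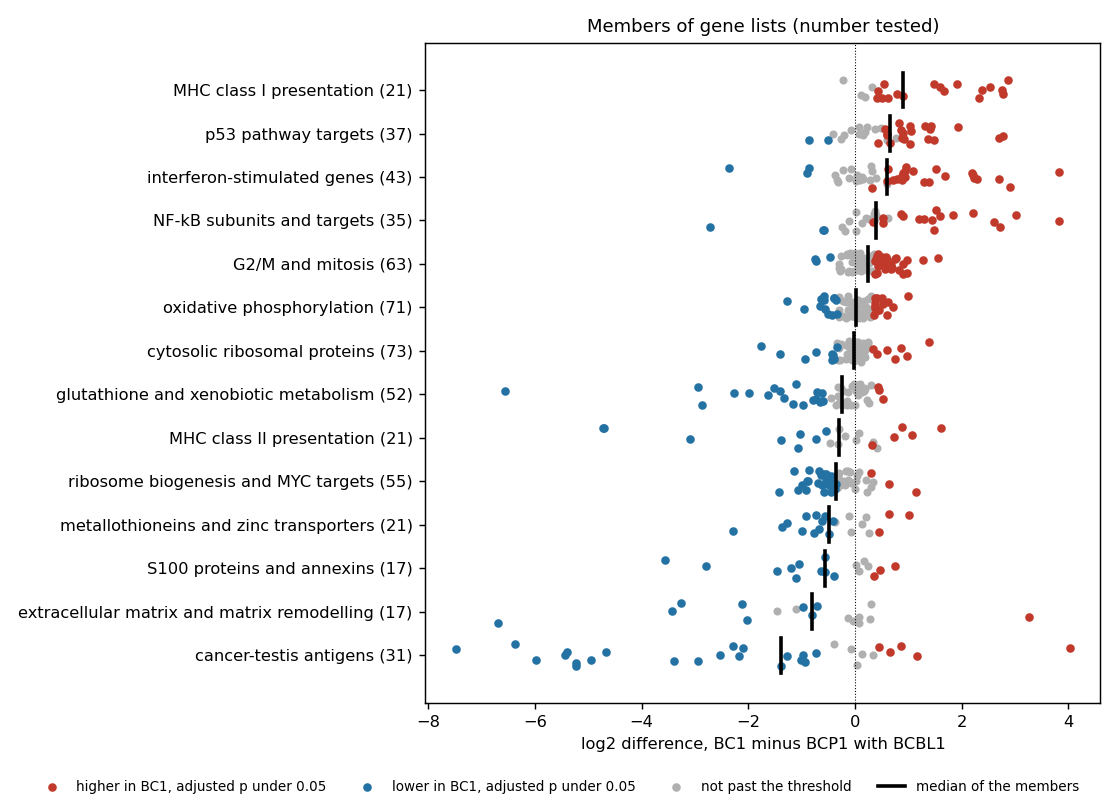
Each point is 1 tested gene of a list, placed by its log2 difference (BC1 minus BCP1 with BCBL1) and coloured by its call, and black bars are medians. The medians run from 0.90 in the class I list to -1.39 in the cancer-testis list, with oxidative phosphorylation (0.02) and cytosolic ribosomal proteins (-0.02) at 0.

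**Figure D3:**
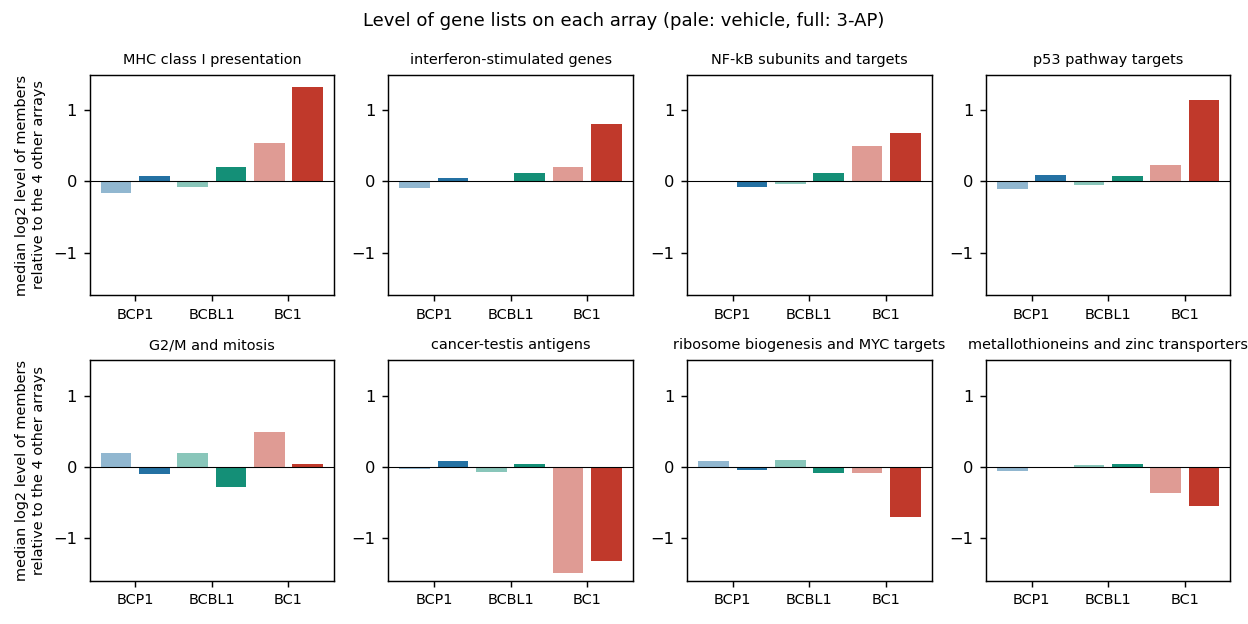
Bars give the median log2 level of a list's tested genes on each of the 6 arrays relative to the mean of the 4 BCP1 and BCBL1 arrays, vehicle in pale and 3-AP in full colour. Class I and p53 targets were at 0.54 and 0.23 on the BC1 vehicle array and at 1.33 and 1.14 on its 3-AP array, while cancer-testis antigens were near -1.4 on both.

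Mitotic genes showed many small differences. Of 63 G2/M genes tested, 26 were higher and 3 lower, yet only 2 of the higher ones passed 2-fold and the median was 0.24. KIF23, a motor of cell division, read 10.63 and 9.94 in BC1 against 8.45 to 8.97 elsewhere and was 2.94-fold higher (1.56 ± 0.13), and CKS1B, a partner of cyclin-dependent kinases, was 2.42-fold higher. CENPA (1.67-fold), the histone of centromeres, and CDC25B (1.65-fold), a phosphatase that starts mitosis, were among the lower members, and neither passed without the BC1 3-AP array (-0.48, adjusted p = 0.0529, and -0.39, adjusted p = 0.0658). DNA replication genes had 6 higher and 9 lower of 55.

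Ribosome biogenesis ran the other way. Of 55 tested genes of ribosome assembly and MYC targets, 25 were lower and 3 higher, with a median of -0.36 that was -0.11 under vehicle and -0.60 under 3-AP. RRS1, an assembly factor of the large subunit, read 10.23 and 9.07 in BC1 and 10.89 to 11.25 elsewhere, and was 2.67-fold lower (-1.42 ± 0.19, adjusted p = 0.000418). RRP12 was 2.19-fold lower and GAR1, a component of RNA-modifying particles, 1.87-fold lower. The 3-AP array of BC1 was the lower of the pair for all 3. MYC itself read 12.41 and 10.84 in BC1 and 10.76 to 12.06 elsewhere, overlapping, and was not called (adjusted p = 0.198), and MXD4, an antagonist of MYC, was 2.20-fold higher. Mitochondrial ribosomal proteins had 23 lower and 9 higher of 76 tested (median -0.20), while the cytosolic ribosomal proteins had 9 lower and 7 higher of 73.

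Cancer-testis antigens, germline genes mostly on the X chromosome that many tumours switch on, were mostly lower or silent in BC1. Of 73 on the array, 31 were detected in at least 1 line and tested, 21 of these were lower in BC1, 18 by at least 2-fold, and 5 were higher, with a median of -1.39. A member off in BC1 could be tested only because another line had it, so the count describes the pattern, and with no filter on detection the median was -0.06. MAGEA1 read 7.76 and 8.17 in BC1, 12.51 and 12.83 in BCP1, and 12.51 and 12.70 in BCBL1, 25.6-fold lower (-4.67 ± 0.11). PAGE5 was at least 44.5-fold lower, MAGEB2 at least 28.8-fold and CTAG2 at least 27.2-fold. These 3 were in the background on both BC1 arrays and above 10 on the others.

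MAGEC1 was the reverse, at 11.48 and 11.70 in BC1, 7.0 and 7.34 in BCP1, and 7.70 and 8.18 in BCBL1, 16.3-fold higher (4.03 ± 0.25). PAGE1 was at least 1.5-fold higher. The family was therefore not silent as a whole in BC1. The CT45A, MAGEA, CTAG and SSX genes have near-identical copies, and which copy each probe read was not tested. Germ cell genes outside these families leaned lower, with 8 lower (42.1%) and 3 higher (15.8%) of 19 tested. Here too, members off in BC1 were tested only because another line had them. The median was -0.17, and it ran from -0.34 to -0.05 over 10 settings. GTSF1, a factor of germline transposon silencing, was at least 80.1-fold lower, TEX19 45.4-fold lower, and DAZL, an RNA-binding protein of germ cells, read 8.29 and 8.55 in BC1 and 11.85 to 12.08 elsewhere, 11.8-fold lower.

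**Figure D4:**
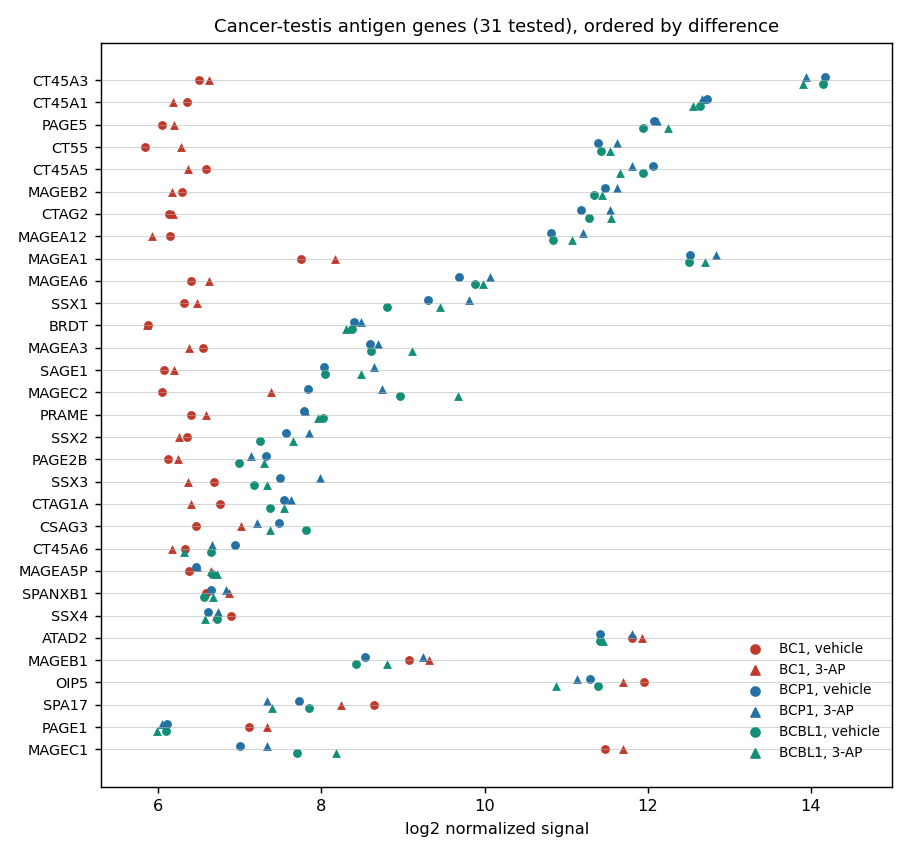
The log2 normalized signal of the 31 tested cancer-testis genes is shown on each array, by line (colour) and agent (circle or triangle), from the largest lower to the largest higher difference in BC1. Genes at the top are near 6 in BC1 and up to 14.18 in the other lines, and MAGEC1 at the bottom is the reverse.

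Matrix and cytoskeleton genes had more lower than higher calls, while integrins, cadherins and adhesion molecules did not lean far either way, with 11 lower and 8 higher of 33 (median 0.03). Among extracellular matrix genes, 8 of 17 tested were lower and 1 was higher, with a median of -0.80 (-0.04 with no filter on detection). TIMP1, an inhibitor of matrix proteases, read 7.49 and 7.85 in BC1 and 10.69 to 11.45 elsewhere, 10.8-fold lower (-3.43 ± 0.13), and its relative TIMP2 was 4.36-fold lower. SPOCK2, a matrix proteoglycan, was at least 9.4-fold lower (above the floor on 1 of 2 BC1 arrays), while its paralogue SPOCK1 was at least 9.32-fold higher (1 of the 4 others). Among actin genes 18 of 44 were lower and 8 higher. TMSB4X (thymosin β4, which binds actin monomers) read 10.18 and 10.94 in BC1 and 14.59 to 14.62 elsewhere, 16.5-fold lower (-4.05 ± 0.17), and PLS3, an actin bundler, was at least 14-fold lower. Set against these, EVL, a factor of actin filament growth, read 10.44 and 10.47 in BC1 and 6.12 to 6.26 elsewhere, at least 14-fold higher.

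S100 proteins and annexins, small calcium-binding proteins and partners of theirs, were lower in 10 of 17 tested and higher in 3 (median -0.55). A gene off in BC1 was tested only because another line had it, and over 10 settings this median ran from -0.73 to -0.07. S100A4 read 10.73 and 9.46 in BC1 and 13.45 to 13.83 elsewhere (11.8-fold lower), and S100A10 8.86 and 8.82 against 11.53 to 11.78 (6.96-fold lower). Metallothioneins and zinc transporters, which buffer and move zinc, were lower in 12 of 21 and higher in 3. Their median was -0.48, and it ran from -0.65 to -0.08 over 10 settings. MT1E read 7.29 and 7.21 in BC1 and 9.07 to 9.92 elsewhere, 4.9-fold lower (-2.29 ± 0.17), and MTF1, the zinc sensor that induces metallothioneins, was 2-fold lower.

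Enzymes of glutathione and xenobiotic metabolism were lower in 19 of 52 tested and higher in 3, with 11 lower by at least 2-fold. Their median was -0.24, and it ran from -0.32 to -0.09 over 10 settings. MGST1, a membrane glutathione transferase, read 6.40 and 6.55 in BC1 and 12.77 to 13.23 elsewhere, at least 85.4-fold lower, with both BC1 values below the floor. ALDH7A1 was at least 7.52-fold lower (above the floor on 1 of 2 BC1 arrays), ALDH1A1 at least 5.38-fold and the sulfotransferase SULT1A1 3.96-fold. Cholesterol synthesis had no lower call and 8 higher of 28 (28.6%, against 20% of all features). Its median was 0.31, with 0.53 under vehicle and -0.01 under 3-AP.

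DNA repair genes were higher in 23 of 74 (31.1%) and lower in 7 (9.46%), against 20% and 18.4% of all features, with a median of 0.17. Of the 7 members on chromosomes 14, 15 and 18, 6 were higher, and without these chromosomes 17 of 67 were higher and 7 lower. Among all 14083 features not placed on these chromosomes, 2672 were higher and 2619 lower. UNG, which removes uracil from DNA, read 6.38 and 6.14 in BC1, in the background, and 11.62 to 11.82 elsewhere, at least 34.8-fold lower on its only probe. ALKBH3, a repairer of alkylated bases, was at least 3.29-fold lower. The next enzyme of base excision repair, APEX1, was 2.18-fold higher (1.13 ± 0.11), and PARP2, a sensor of strand breaks, 2.11-fold higher (1.08 ± 0.11), both in a block of chromosome 14 with many higher genes described below.

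Isolated genes also stood far apart. GZMA (granzyme A), a protease of killer lymphocytes, read 5.98 and 6.63 in BC1, 11.75 and 12.98 in BCP1, and 12.26 and 12.96 in BCBL1, at least 57.9-fold lower (above the floor on 1 of 2 BC1 arrays). The T cell genes CD96 (3.1-fold), LAT (2.41-fold) and CD7 (at least 1.6-fold) were lower as well. Of 34 T and natural killer genes on the array, 18 were detected on no array and 11 were tested, 5 of them lower and none higher. A gene off in BC1 was tested only because another line had it. The median of the 11 was -0.24, and it ran from -0.70 to -0.01 over 10 settings. HSPA1A, the inducible HSP70, read 6.47 and 6.55 in BC1 and 11.96 to 12.58 elsewhere (at least 52.8-fold lower), and its near-identical copy makes the source of the signal uncertain. NME4, a mitochondrial nucleoside diphosphate kinase, was at least 38.2-fold lower.

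Regulators of progenitor fate, Notch genes and chemokines had calls in both directions. The progenitor list had 5 higher and 3 lower of 13, the Notch list 5 and 3 of 18, and chemokines and their receptors 3 and 5 of 16. NOTCH1 read 9.62 and 10.86 in BC1 and 7.33 to 8.13 elsewhere, 5.51-fold higher (2.46 ± 0.17). RUNX3, a factor of lymphoid cells, was at least 10.1-fold higher (above the floor on 3 of the 4 other arrays), and ID3, an inhibitor of E proteins, at least 8.78-fold (1 of 4). LYL1, a factor of blood progenitors, was 8.64-fold lower, and HHEX, a homeobox factor, at least 3.72-fold lower. CXCR4, a homing receptor for bone marrow, read 10.09 and 9.65 in BC1 and 7.21 to 8.07 elsewhere, 4.99-fold higher, against the lower chemokines CCL5 and CKLF (3.31-fold). CA2, a carbonic anhydrase known from red cells, was 26-fold higher and the embryonic globin HBE1 5.99-fold higher, in a list of 12 erythroid and megakaryocyte genes with 5 higher and 2 lower.

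Differences were uneven along the chromosomes. Of 10652 genes placed by RefSeq, chromosome 18 had 62 of 147 higher (42.2%), chromosome 14 had 124 of 336 (36.9%) and chromosome 15 had 118 of 344 (34.3%), against 15.1% to 25.9% on the other chromosomes. Chromosome 19 had the most lower calls, 228 of 730 (31.2%). When each chromosome was cut into 4 blocks of equal gene number, in gene order, 60 of the 84 genes in block 1 of chromosome 14 were higher (71.4%, median 0.69). They included APEX1, PARP2, the chromatin remodeller CHD8, the proteasome subunit PSMB5, PSME1, PSME2, IRF9 and the dehydrogenase DHRS4L2. NFKBIA lies at the start of the next block.

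In block 4 of chromosome 18, 27 of 37 genes were higher (73%, median 0.74), among them PMAIP1, BCL2 and CYB5A, a cytochrome that was at least 9.73-fold higher. Block 4 of chromosome 17 had 71 of 159 lower (44.7%) and block 1 of chromosome 19 had 85 of 182 lower (46.7%). In block 1 of chromosome 2, 70 of 169 were lower (41.4%), and in its block 4, 66 of 169 were higher (39.1%). Block 4 of chromosome 15 had 39 of 86 higher (45.3%), and block 4 of chromosome 12 had 60 of 149 lower (40.3%). Chromosome 8 had 42 of 98 lower in block 2 (42.9%) and 40 of 98 higher in block 3 (40.8%), where CA2 and RRM2B lie.

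Members of the immune and p53 lists sit in these blocks, so each list was counted again without chromosomes 14, 15 and 18, a choice made after seeing the data. Among all 14083 features not placed on these chromosomes, 2672 were higher and 2619 lower, with a median of 0.03. Class I presentation then had 15 of 18 higher (median 0.84), interferon-stimulated genes 21 of 40 (0.60), NF-kB 16 of 34 (0.39) and p53 targets 17 of 33 (0.60). The G2/M list had 21 of 56 higher and its median fell from 0.24 to 0.17, and 5 of its 7 members on these chromosomes were higher. Cancer-testis antigens had 21 of 30 lower. Blocks of other chromosomes, such as block 3 of chromosome 8, stayed in these counts.

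**Figure D5:**
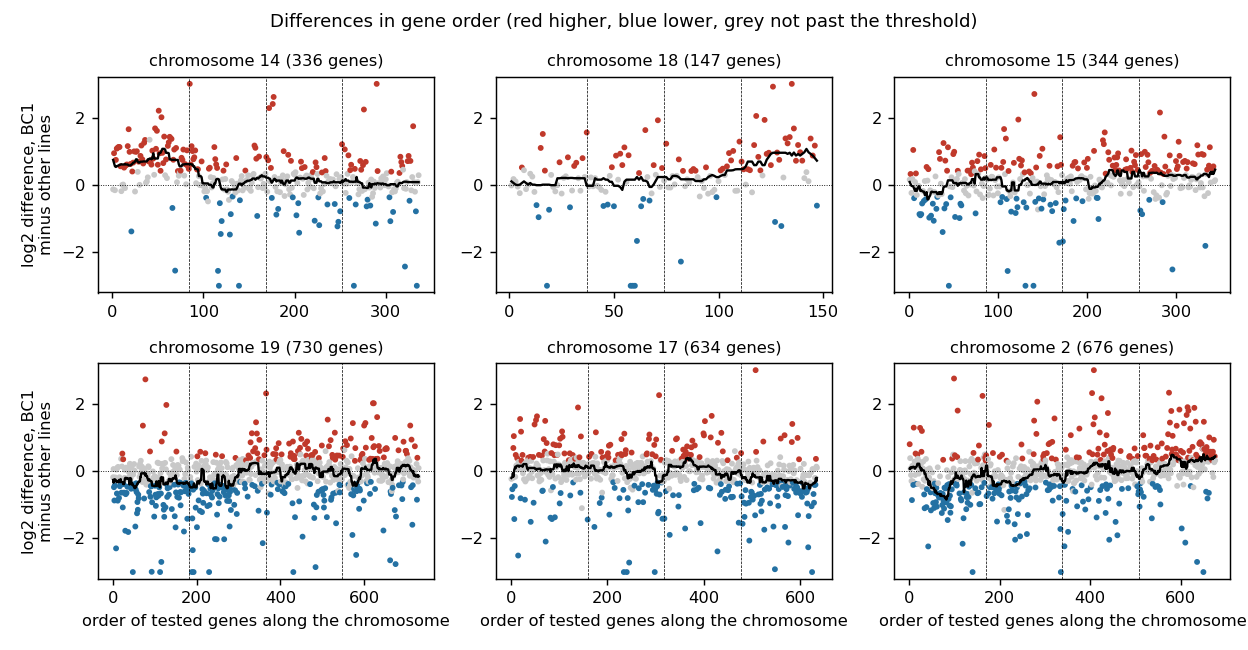
Log2 differences (BC1 minus other lines) of tested genes are drawn in gene order along 6 chromosomes, red for higher, blue for lower and grey for not called, with values beyond 3 drawn at 3. The black line is a running median of 21 genes and dashed lines part the 4 blocks, and it lies above 0 through block 1 of chromosome 14 and block 4 of chromosome 18.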

How the data were processed

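RNA of 3 cell lines, each with vehicle or 3-AP, was measured on 6 Illumina bead arrays. The authors deposited 1 processed intensity per probe and array, on a linear scale. How they background-corrected and normalized it is not given in the sources used here, and the sorted values of the 2 arrays of a line nearly coincide (within 0.133 on the log2 scale), while those of different lines do not. Detection p-values were deposited by the authors in a second, non-normalized table. Its columns labelled BCP1 held the values of the processed BCBL1 columns, so no detection p-value of BCP1 was used, and BCP1's probes counted as detected in the top 38.12% of signals.

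Deposited intensities were corrected with limma 3.58.1 in R 4.3.3 (normexp, offset 50), quantile normalized across the 6 arrays and put on the log2 scale. Of 47323 probes, the 18371 detected (p under 0.05) on both arrays of at least 1 line were kept, with the probe of highest mean standing for its gene. limma was fitted with line (BC1 or other) and agent, on 3 residual degrees of freedom. Probes were named from the platform annotation with symbols updated through RefSeq. The scripts were tested on simulated data. On BCBL1 and BC1 arrays 37% to 39.2% of probes were detected. Depth on arrays is limited by signal over background, and the number of arrays limits the precision.

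The gene lists and the genes named were chosen with earlier results of these data known. The rule for naming took called genes whose arrays did not overlap. These were the 10 largest differences in each direction and those of smallest p in each list (up to 5) and chromosome (up to 4). Families of at least 8 tested genes whose symbols start with the same letters gave up to 4 each, among them IRF7, IFI27, SAMD9, CHD8 and DHRS4L2. Under the same rule, defining markers and ribonucleotide reductase subunits were named whatever their value. B2M, CALR, CANX, CDC25B, CDKN1A, CENPA, CIITA, CTAG2, ERAP2, GBP2, HERC5, HLA-B, HLA-E, ISG15, MAGEA1, MAGEB2, MDM2, MYC, NFKB1, NFKB2, PAGE1, PSME1, PSME2, REL, RELA, RELB, TAP1, TAP2 and TIMP2 fell outside that rule and were chosen after their values were seen.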

Additional observations from a re-analysis of the deposited data

How the results depend on the processing

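The count of 5730 called features stayed within 1.5 times under 20 of 22 other settings of background correction, scaling, filter, probe choice, model and array choice. The non-normalized BCBL1 and BC1 arrays gave 3323, with 3 of the main calls of the other sign, on 1 residual degree of freedom. Leaving out each array in turn gave 3733 (without the BC1 3-AP array) to 5191 (without the BC1 vehicle array). The replicate number marks the agent, which the main model holds. Without this replicate block 4084 features were called, all of them among the 5730. Of calls between BCP1 and BCBL1, the nec background left 0 by limma (1157 at an unadjusted p under 0.05), and no filter gave 27. The median of cholesterol synthesis genes was -0.00911 on the 3-AP arrays only against 0.31 over all arrays, and the median of oxidative phosphorylation, near 0, was -0.007 as deposited against 0.02. Medians of 61 gene lists were less stable. The yardstick was the SD of a list's 2 medians, on vehicle arrays only and on 3-AP arrays only, a gap between agents. Medians moved by more than this in 25 lists with no filter, 22 under median scaling, 19 with the nec background and 16 as deposited. On vehicle arrays only 19 moved and on 3-AP arrays only 25, but these medians also set the yardstick. Over 10 settings the median ran from 0.75 to 1.19 for class I presentation, 0.31 to 0.75 for interferon-stimulated genes, 0.34 to 0.73 for NF-kB, 0.32 to 1.04 for p53 targets, -0.60 to -0.11 for ribosome biogenesis, and -2.45 to -0.06 for cancer-testis antigens. Of 103 called genes named in the report, 98 to 103 kept their call under each setting, and none turned sign. The causes were not tested. With 1 culture per line and agent, differences between cultures and between lines cannot be told apart, and signals near the background give only bounds.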

Other observations

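Gene groups not described above differed as follows. Complement and coagulation genes had 9 lower and none higher of 22 tested, while fatty acid and phospholipid synthesis had 15 lower and 5 higher of 38. Over 10 settings their medians ran from -0.56 to -0.03 and from -0.40 to -0.06. The TNF superfamily had 9 higher and 4 lower of 20. Proteasome subunits (5 higher and 7 lower of 36), oxidative phosphorylation (14 and 13 of 71) and endoplasmic reticulum chaperones (9 and 10 of 53) were balanced.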
